A study of Mus musculus with 8 samples.

Results

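The genes described here make up the switch that sits upstream of ATF4 in the integrated stress response: the subunits of the translation factor eIF2, the kinases that phosphorylate it, the regulatory subunits of the phosphatase that reverses this, and the similarly named factor eIF2A. They were taken by gene symbol, with earlier results of these data known, and are 10 of the 55291 genes in the deposited table. All 10 were found and all 10 passed the filter on low counts, among 16630 genes tested. Of the switch genes, the transcript of the eIF2 beta subunit, Eif2s2, was 2.06-fold higher in ATF4 overexpression and that of the constitutive phosphatase regulator, Ppp1r15b, was 1.29-fold higher. The other 8 did not pass the test. The transcript of the inducible phosphatase regulator, Ppp1r15a, followed a division of the libraries that cut across genotype.

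Polyadenylated RNA was sequenced from CD8+ T cells of mouse spleen, which were enriched with a commercial isolation kit and which the sample titles call naïve. There were 4 libraries of mice with the genotype label ATF4 Tg/Tg, titled ATF4 overexpression, and 4 of mice labelled WT. The design text instead names ATF4Tg/Tg and E8IcreATF4Tg/Tg mice, so the controls may carry the transgene too, without Cre. WT is used here as the sample labels give it. E8I is a Cd8a enhancer used to drive Cre in mature CD8 T cells. The labels give no age, sex or treatment. Nor do they state whether each library is a different animal, and a p-value here therefore weighs the spread among libraries, which may be technical.

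The libraries held 93478686 to 125974143 estimated counts, and levels are given as counts per 1e6 counts of the library (CPM) after scaling for composition. They fell into sets that cut across genotype, replicates 1 and 2 against replicates 3 and 4, whose column names are also written differently. In 4 libraries (WT 1, WT 4, ATF4 overexpression 1 and 2) genes with 2 to 5 counts were fewer than 1000. Atf4 itself had 285.5, 307.8, 165.2 and 165.4 CPM in WT 1 to 4 and 445.2, 426.8, 227.5 and 212.1 CPM in ATF4 overexpression 1 to 4. Its groups overlapped over all libraries (log2 fold change 0.51 ± 0.31 SE, adjusted p = 0.367). It was higher within replicates 1 and 2 (0.59, adjusted p = 0.00383), within replicates 3 and 4 (0.41, adjusted p = 0.00463) and with the replicate number as a block (0.48, adjusted p = 0.000219). Without the 4 libraries short of low counts it was not (-0.11, adjusted p = 0.858). That subset is unbalanced by set: it leaves WT 2 and 3 against ATF4 overexpression 3 and 4, and Atf4 was 1.90-fold higher in replicates 1 and 2.

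The labelled cell type was present: the summed level of 7 CD8 T cell markers was 5671 to 5958 CPM in WT and 4593 to 4668 CPM in ATF4 overexpression, with 5 of the 7 lower (Cd8a, Cd8b1, Cd3d, Trac and Lck). Many markers of other cells were higher in ATF4 overexpression. Erythroid markers summed to 7.6 to 12.2 CPM in WT and 65.1 to 250.3 CPM in ATF4 overexpression (7 of 11 higher). Myeloid markers went from 19.3 to 73.1 CPM up to 124.9 to 266.9 CPM (6 of 10 higher), and B cell markers from 619.5 to 816.9 CPM up to 663.8 to 1189 CPM (6 of 9 higher). Of the platelet markers 4 of 6 rose, of the NK cell markers 2 of 5 and of those of CD4 T cells 2 of 3. Over all tested genes 9.16% were higher and 4.89% lower. With the replicate block 1 of the 3 CD4 T cell markers, Zbtb7b, was higher, beside 13.7% of tested genes. The genotype difference of Cd4 differed between the sets (edgeR interaction test, adjusted p = 0.00475). The NK cell calls were lost (0 of 5) under the replicate block, and all 5 genes differed between the sets in their genotype difference: they summed to 268.5 to 313.7 CPM in ATF4 overexpression 1 and 2 and to 107.6 to 113.1 CPM in 3 and 4. Of 8 proliferation genes 5 were higher (Mki67, Top2a, Birc5, Ccnb1 and Cdk1), in cells titled naïve. No marker found in the table was at 0 in every library. The part of these cells in the results that follow was not tested, and in bulk RNA fewer cells of a type and less RNA per cell cannot be told apart.

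As background, eIF2 is a complex of an alpha, a beta and a gamma subunit that brings the initiator methionyl-tRNA to the ribosome with GTP. Stress-activated kinases phosphorylate serine 51 of the alpha subunit, which turns eIF2 from a substrate into an inhibitor of its exchange factor eIF2B, lowers translation of most mRNAs and raises translation of a few, Atf4 among them. Phosphatase PP1, held to eIF2 by PPP1R15A (GADD34) or PPP1R15B (CReP), removes the phosphate. These are events on proteins, and the libraries measured polyadenylated RNA only. The phosphorylated serine is encoded by codon 52 of the Eif2s1 coding sequence, counting the initiator methionine, and is shown because the kinases and the phosphatase all act on it. Codons 45 to 59, from the GRCm38 reference annotation with the serine codon in capitals, read as follows.
Eif2s1 codons 45 to 59: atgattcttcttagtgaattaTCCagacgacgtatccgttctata

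The first comparison asked which of the 10 transcripts differed between ATF4 overexpression and WT. Of the 10, 2 were higher and 0 lower at an adjusted p below 0.05 (edgeR quasi-likelihood test, Benjamini-Hochberg over all tested genes), beside 9.16% of all tested genes higher and 4.89% lower (14.1% in either direction). The median log2 fold change of the 10 was 0.05, beside -0.02 over all tested genes. The levels of the same 2 genes, Eif2s2 and Ppp1r15b, did not overlap between the groups, as was so for 22.0% of tested genes. With a block for replicate number, Eif2s2 and Ppp1r15b were again the higher genes, beside 13.7% of tested genes higher and 13.5% lower, and with a block for library set likewise (14.0% higher). They were also the ones called within replicates 1 and 2 (6.75% of tested genes higher) and within replicates 3 and 4 (14.3% higher). Without the 4 libraries short of low counts only Eif2s2 was called (7.29% higher). For none of the 10 did the genotype difference itself differ between replicates 1 and 2 and replicates 3 and 4 (lowest adjusted p of the interaction 0.164), a test passed by 0.998% of tested genes.

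**Figure D1:**
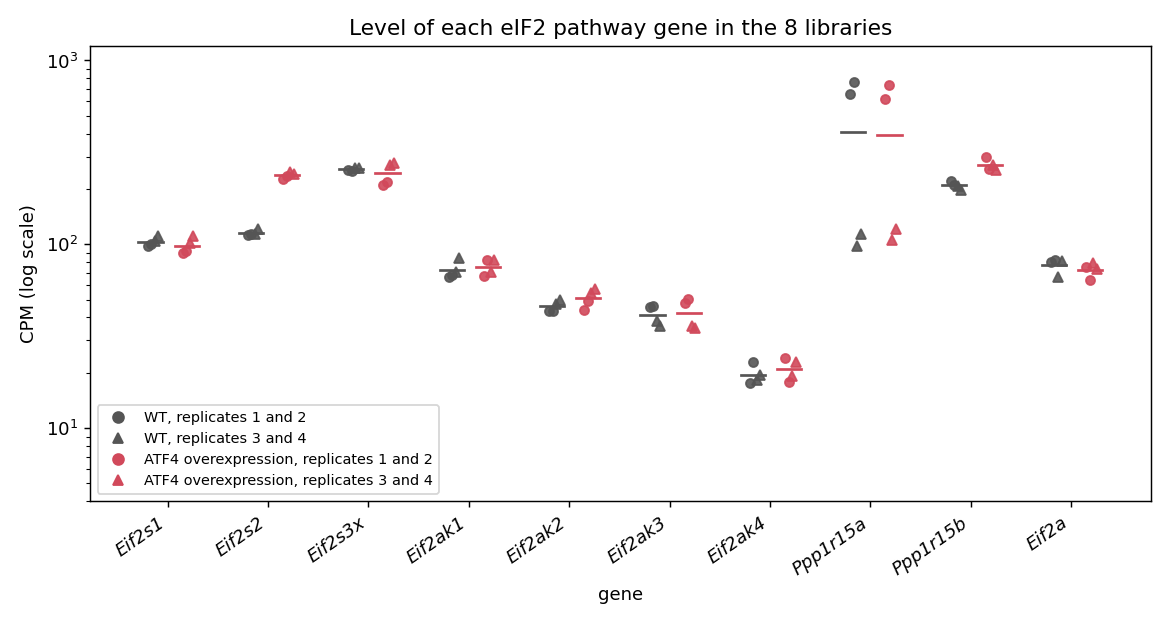
Level of the 10 genes in each library in CPM on a log axis, with WT in grey and ATF4 overexpression in red, circles for replicates 1 and 2, triangles for replicates 3 and 4, and lines at the group means (n = 4). Eif2s2 and Ppp1r15b are the genes whose groups do not overlap, and Ppp1r15a splits by library set in both groups.

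Eif2s2 encodes the beta subunit, which contacts the initiator tRNA and the partners eIF5 and eIF2B. It lies on chr2:154871410-154892935 (GRCm38, minus strand). Its levels were 112.3, 114.4, 114.4 and 121.9 CPM in WT 1 to 4 and 226.9, 235.4, 248.6 and 242.4 CPM in ATF4 overexpression 1 to 4. Every ATF4 overexpression library was well above every WT library, and the spread within a group was small. The means were 116 ± 4.19 CPM (SD, n = 4) and 238 ± 9.36 CPM (SD, n = 4), a fold change of 2.06 with a 95% interval of 1.87 to 2.27 (log2 1.04 ± 0.06 SE, edgeR adjusted p = 5.95e-06).

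The size of the Eif2s2 difference was alike in both sets: 1.06 on the log2 scale in replicates 1 and 2 (adjusted p = 0.000197) and 1.06 in replicates 3 and 4 (adjusted p = 0.000119). It was 1.10 (adjusted p = 0.00343) without the 4 libraries short of low counts. An exact two-sided permutation test of the 70 assignments of libraries to groups gave p = 0.0286, the smallest this design can give. Any gene whose groups do not overlap reaches this value, as 22.0% of tested genes do not, so it adds nothing to the lack of overlap. Eif2s2 was higher and past the threshold under all 20 alternatives tried, with log2 fold changes from 1.02 to 1.10.

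Eif2s2 shares nearly all of its coding sequence with Gm9892, a processed pseudogene (a copy made from spliced RNA) on chr8:52196065-52197056 (GRCm38). The copy aligned over 992 of the 993 coding bases with 5 differences, an identity of 99.5%. Written with the Eif2s2 base first, the position counted from 1 at the A of its start codon, and then the Gm9892 base, these were T66C, A255G, G346T, C546A and G622A. Reads were 50 bases at each end, and 693 of the 943 windows of 50 bases along this stretch (73.5%) held no difference. That share counts single windows, not both ends of a pair. The longest Eif2s2 transcript has 4102 bases, most of them outside this stretch. The stretch around the last 2 differences, with the differing bases in capitals, shows how little separates the aligned parts. It covers coding bases 536 to 632 of Eif2s2 on its coding strand, from the GRCm38 reference.
Eif2s2: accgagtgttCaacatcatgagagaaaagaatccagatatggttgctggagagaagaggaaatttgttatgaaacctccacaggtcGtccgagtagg
Gm9892: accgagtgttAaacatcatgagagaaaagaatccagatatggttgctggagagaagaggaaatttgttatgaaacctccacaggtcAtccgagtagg

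The quantifier used by the authors, Salmon, divides reads between such copies by a model, and the estimates of Eif2s2 were not whole numbers (tolerance 0.001) in any of the 8 libraries. Gm9892 received 11.9, 10.4, 10.96 and 13.2 CPM in WT 1 to 4 and 21.7, 23.5, 25.2 and 24.3 CPM in ATF4 overexpression 1 to 4, in all 9.96% of the Eif2s2 counts. It moved with Eif2s2 in size and direction (log2 fold change 1.03 ± 0.11 SE, adjusted p = 0.00029). Adding its counts to Eif2s2, an alternative chosen after seeing the data, gave a log2 fold change of 1.04 (adjusted p = 6.86e-06). Whether the Gm9892 counts are its own RNA or Eif2s2 reads was not tested.

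Among the 8763 genes that averaged 10 CPM or more, those with the profile over the 8 libraries nearest to Eif2s2 were Gm9892, Ptprv and Lars. Lars encodes the cytosolic leucyl-tRNA synthetase, which charges tRNA with leucine. Likeness was the root mean square difference of centred log2 CPM, which was 0.0773, 0.0824 and 0.0866 for these genes.

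Because Eif2s2 was the switch gene with the largest called difference, its promoter (RefSeq, GRCm38.p6, chr2:154892857-154893156, minus strand, 250 bases before to 50 after the start) is shown, written 5′ to 3′ with no capitals because none of the motifs searched was found in it. The motifs, searched on both strands, were TGATGNAA, the core of the element that ATF4 and C/EBP proteins bind, the core of the interferon-stimulated response element (GAAA, 2 bases of any kind, GAAA), and the ER stress element (CCAAT, 9 bases of any kind, CCACG). They occurred in 3.97%, 3.44% and 0.119% of the 32851 promoters in the table. Of the switch genes, 9 of 10 had a promoter there, the missing one being Ppp1r15b.
Eif2s2 promoter: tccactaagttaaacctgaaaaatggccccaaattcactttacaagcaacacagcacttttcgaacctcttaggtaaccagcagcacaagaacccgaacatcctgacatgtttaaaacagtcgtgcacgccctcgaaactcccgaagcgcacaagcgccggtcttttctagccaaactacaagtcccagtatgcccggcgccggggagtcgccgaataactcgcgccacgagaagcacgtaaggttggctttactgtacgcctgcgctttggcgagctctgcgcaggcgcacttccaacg

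The alpha subunit gene Eif2s1 (chr12:78861819-78887010, plus strand), the substrate of the kinases, did not pass the test. Its levels were 97.3, 100.2, 104.3 and 110.8 CPM in WT and 89.5, 91.5, 101.4 and 110.8 CPM in ATF4 overexpression. The groups overlapped almost fully, and in both groups replicates 3 and 4 were above replicates 1 and 2. The means were 103 ± 5.84 and 98.3 ± 9.84 CPM (SD, n = 4 each), and the log2 difference of -0.07 had a 95% interval of -0.26 to 0.12 (adjusted p = 0.691). Its processed pseudogenes Gm12734 and Gm7459 held 0.104% and 0.351% of its counts.

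The gamma subunit, which binds GTP and the initiator tRNA, is encoded on the X chromosome by Eif2s3x (chrX:94188707-94212862, minus strand). It had 253.7, 250.2, 261.7 and 261.3 CPM in WT and 209.9, 218.0, 270.5 and 275.5 CPM in ATF4 overexpression. The WT libraries lay close together, whereas ATF4 overexpression 1 and 2 were below all WT libraries and 3 and 4 above them. The log2 difference was -0.08 (95% interval -0.29 to 0.14, adjusted p = 0.711) over all libraries, -0.20 (adjusted p = 0.171) in replicates 1 and 2 and 0.06 (adjusted p = 0.456) in replicates 3 and 4. The difference between those differences had an adjusted p of 0.164. A processed pseudogene on the X chromosome, Gm2223, matched Eif2s3x at 100% over 1350 bases and held 8.32% of its counts (log2 difference -0.05, adjusted p = 0.879). The Y-linked gamma gene Eif2s3y had a count of 0 in all 8 libraries, which allows up to 3 counts, or 0.0321 CPM in the shallowest library.

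Per kilobase of exon, which allows levels of different genes to be set side by side, the subunit transcripts were unequal. In WT the gamma transcript was at 67.4 ± 1.5 CPM per kilobase, alpha at 20.8 ± 1.18 and beta at 17.1 ± 0.62 (SD, n = 4 each). In ATF4 overexpression they were at 63.9 ± 9.0, 19.9 ± 1.99 and 35.3 ± 1.38. Alpha was above beta in all 4 WT libraries and beta above alpha in all 4 ATF4 overexpression libraries. The WT gap was small: with the longest transcript as the length, alpha averaged 30.3 and beta 28.2 CPM per kilobase. Counts of Gm9892, 9.96% of those of Eif2s2, were left out, and the WT order with them added was not tested.

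The beta to alpha ratio per length was 0.846, 0.837, 0.804 and 0.806 in WT and 1.86, 1.89, 1.80 and 1.60 in ATF4 overexpression, with no overlap. With the longest transcript as the length it averaged 0.932 and 2.02. The gamma to alpha ratio averaged 3.24 ± 0.13 in WT and 3.21 ± 0.19 in ATF4 overexpression (SD, n = 4 each). The transcript ratio of the subunits therefore differed between the groups through Eif2s2, and the levels of the proteins were not measured.

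**Figure D2:**
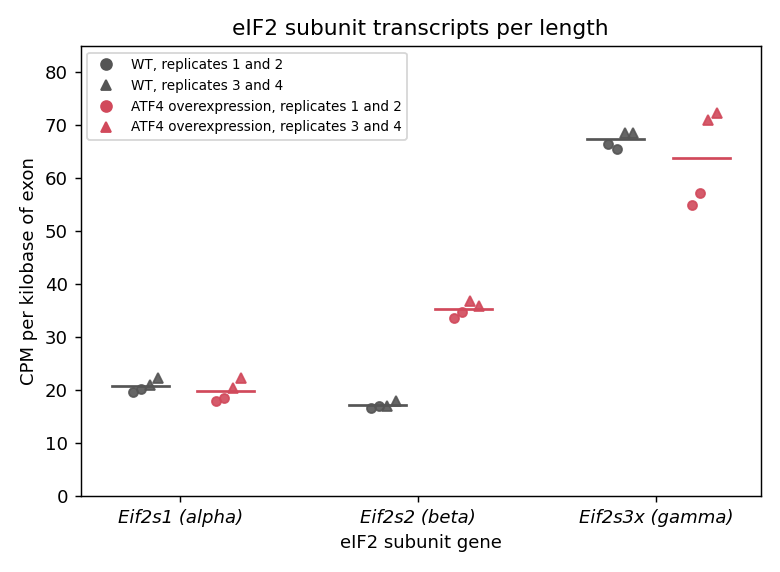
Level of the 3 eIF2 subunit transcripts in CPM per kilobase of exon, on a linear axis from 0, with WT in grey and ATF4 overexpression in red, circles for replicates 1 and 2, triangles for replicates 3 and 4, and lines at the group means (n = 4). Beta lies just under alpha in WT and well above it in ATF4 overexpression, while the gamma points of ATF4 overexpression split by library set. Counts of Gm9892 are left out.

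Eif2a encodes eIF2A, a separate single-chain factor that can deliver initiator tRNA in other ways; it is not eIF2 alpha in spite of its symbol. It had 80.2, 82.6, 66.4 and 81.0 CPM in WT and 74.9, 64.1, 78.8 and 73.5 CPM in ATF4 overexpression. The groups overlapped, with 1 low library in each. The log2 difference was -0.09 (95% interval -0.30 to 0.12, adjusted p = 0.625).

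None of the 4 kinase transcripts passed the test. They are named by what activates them: heme-regulated HRI (Eif2ak1), which also senses mitochondrial stress, double-stranded RNA-activated PKR (Eif2ak2), the ER stress sensor PERK (Eif2ak3), and amino acid-sensing GCN2 (Eif2ak4), which binds uncharged tRNA. Their 95% intervals ran from -0.28 at the lowest to 0.39 at the highest on the log2 scale, so a rise as large as that of Eif2s2 lies outside the interval of each.

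Eif2ak1 had 66.0, 68.2, 70.7 and 83.9 CPM in WT and 67.4, 82.3, 70.4 and 82.2 CPM in ATF4 overexpression, fully overlapping (0.07, 95% interval -0.16 to 0.29, adjusted p = 0.766). HRI is best known from red cell precursors, where it couples globin synthesis to heme. The erythroid markers were higher in all ATF4 overexpression libraries, 65.1 to 68.5 CPM in replicates 1 and 2 and 242.2 to 250.3 CPM in replicates 3 and 4. The log2 difference of Eif2ak1 was 0.19 (adjusted p = 0.379) in replicates 1 and 2 and -0.02 (adjusted p = 0.942) in replicates 3 and 4. The part of erythroid RNA in its level was not tested. Eif2ak1 exons overlap those of Aimp2 and Ankrd61 on the other strand, and the longest match to Aimp2 had 488 bases. The strand setting of the counting is not given in the sources used here. Aimp2 itself had 32.5% as many counts as Eif2ak1 and a log2 difference of -0.24 (adjusted p = 0.318). Exons of Eif2ak2, Eif2ak3, Ppp1r15a and Eif2a also overlap genes on the other strand (Gm26637 and n-R5s29, Gm43292, Tulp2 and Serp1), so their counts carry the same limit.

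Eif2ak2 had 43.4, 43.4, 47.5 and 50.1 CPM in WT and 44.2, 49.1, 54.4 and 57.1 CPM in ATF4 overexpression. ATF4 overexpression 3 and 4 stood above all WT libraries and 1 and 2 among them. The log2 difference was 0.15 (95% interval -0.06 to 0.36, adjusted p = 0.375). PKR is an interferon-induced gene. Of 12 interferon-stimulated genes 0 passed the test over all libraries (median log2 fold change 0.28), beside 14.1% of tested genes. With the replicate block 2 were higher, beside 13.7% of tested genes. Within replicates 1 and 2 alone 7 of the 12 were higher and 0 lower, beside 6.75% of tested genes higher. Within replicates 3 and 4 2 were higher and 1 lower, beside 14.3% of tested genes higher. For Ifit1, Ifit3 and Rsad2, named after their values were seen, the genotype difference itself differed between the sets (adjusted p of the interaction 0.0441, 0.0237 and 0.0307). Eif2ak2 had log2 differences of 0.14 (adjusted p = 0.495) and 0.19 (adjusted p = 0.0887) in the same sets. Their summed level was 777.3 to 815.2 CPM in WT 1 and 2, 1006 to 1058 CPM in WT 3 and 4, and 991.2 to 1044 CPM in ATF4 overexpression.

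The Eif2ak2 promoter (RefSeq, GRCm38.p6, chr17:78882523-78882822, minus strand) is shown because it holds a match to the interferon-stimulated core, in capitals, beginning 18 bases after the start. Matches to the same core were found in the promoters of Ppp1r15a (220 bases before the start), Eif2s1 (212 before) and Eif2s3x (4 before, other strand). TGATGNAA was found in 1 promoter, that of Eif2s3x (96 before, other strand), and the ER stress element in none of the 9. A match is a run of letters and shows no binding.
Eif2ak2 promoter: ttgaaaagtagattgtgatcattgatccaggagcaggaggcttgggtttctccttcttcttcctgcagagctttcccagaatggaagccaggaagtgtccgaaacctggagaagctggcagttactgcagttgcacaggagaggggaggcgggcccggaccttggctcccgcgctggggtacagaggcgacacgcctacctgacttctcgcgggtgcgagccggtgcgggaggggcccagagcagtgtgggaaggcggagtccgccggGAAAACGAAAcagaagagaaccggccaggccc

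Eif2ak3 had 45.6, 46.0, 38.2 and 36.1 CPM in WT and 48.1, 50.6, 36.0 and 35.1 CPM in ATF4 overexpression. Replicates 1 and 2 were above replicates 3 and 4 in both groups, by 1.31-fold on average, and the genotypes overlapped. The log2 difference was 0.03 (95% interval -0.28 to 0.35, adjusted p = 0.922). Eif2ak4 was the lowest of the kinases, with 17.5, 22.9, 18.3 and 19.5 CPM in WT and 24.1, 17.9, 19.1 and 22.9 CPM in ATF4 overexpression. Its groups overlapped without any order by genotype or library set (0.10, 95% interval -0.19 to 0.39, adjusted p = 0.706).

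In levels per kilobase of exon the kinases ranked Eif2ak1, Eif2ak2, Eif2ak3 and Eif2ak4 in both groups. In WT these were 12.7 ± 1.42, 9.02 ± 0.64, 6.88 ± 0.85 and 2.62 ± 0.32 CPM per kilobase (SD, n = 4 each). No neighbours in this order overlapped in WT. All 4 kinases were below every eIF2 subunit transcript. Over all 10 genes in WT, neighbours whose libraries overlapped were Ppp1r15a and Eif2s3x at the top, and Eif2ak1 and Eif2a. In ATF4 overexpression Eif2a and Eif2ak2 overlapped as well.

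Ppp1r15b encodes CReP, the constitutively made regulatory subunit that keeps PP1 acting on eIF2 in unstressed cells, and lies on chr1:133131143-133139783 (GRCm38, plus strand). It had 221.0, 210.4, 207.8 and 197.2 CPM in WT 1 to 4 and 298.4, 256.9, 270.1 and 253.5 CPM in ATF4 overexpression 1 to 4. All ATF4 overexpression libraries were above all WT libraries. The means were 209 ± 9.79 and 270 ± 20.4 CPM (SD, n = 4 each), a fold change of 1.29 with a 95% interval of 1.15 to 1.45 (log2 0.37 ± 0.07 SE, edgeR adjusted p = 0.00864).

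The Ppp1r15b difference was 0.40 on the log2 scale (adjusted p = 0.0359) in replicates 1 and 2 and 0.37 (adjusted p = 0.00937) in replicates 3 and 4. The exact two-sided permutation test gave p = 0.0286, the smallest possible here, which restates that the groups did not overlap. Leaving out any 1 library kept the call (adjusted p 0.0126 to 0.0319), but without the 4 libraries short of low counts the log2 difference of 0.32 missed the threshold (adjusted p = 0.104, 2 libraries a group). On the other strand Gm26616 shares 640 bases with the exons of Ppp1r15b, and its counts were 0.579% of those of Ppp1r15b. Genes with the nearest profiles were Prkcd, St3gal4 and Pds5a, with root mean square differences of 0.0439, 0.0618 and 0.062.

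Ppp1r15a encodes GADD34, the inducible counterpart, which is itself a known target of the integrated stress response and returns translation to normal after stress. It had 656.2, 767.0, 98.2 and 114.4 CPM in WT 1 to 4 and 617.5, 735.6, 105.2 and 120.6 CPM in ATF4 overexpression 1 to 4. In both groups replicates 1 and 2 were far above replicates 3 and 4, and the genotypes overlapped fully. The mean was 6.33-fold higher in replicates 1 and 2 than in replicates 3 and 4, the 259th largest difference in either direction among the 16630 tested genes.

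Between genotypes the log2 difference of Ppp1r15a was -0.05 with an interval of -2.17 to 2.06 (adjusted p = 0.983). With the replicate number as a block it was 0.01 (adjusted p = 0.937), in replicates 1 and 2 -0.04 (adjusted p = 0.908) and in replicates 3 and 4 0.09 (adjusted p = 0.582). Without the 4 libraries short of low counts, which leaves WT 2 and 3 against ATF4 overexpression 3 and 4, it was -1.94 (adjusted p = 0.28). The exact permutation p was 0.971. A genotype difference in Ppp1r15a was thus not detectable over all libraries, where the interval is wide.

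Other genes moved with Ppp1r15a by library set. Its nearest profiles were Dnajb9, Dusp1 and Klf6 (root mean square differences 0.137, 0.198 and 0.233). Dnajb9, an ER co-chaperone, had 161.6, 170.8, 25.3 and 25.4 CPM in WT and 129.8, 138.6, 25.4 and 25.6 CPM in ATF4 overexpression. The summed level of 14 immediate early and handling stress genes was 2591 to 3081 CPM in WT 1 and 2 and 1109 to 1165 CPM in WT 3 and 4. In ATF4 overexpression it was 3206 to 3603 CPM and 1092 to 1178 CPM. The list was not uniform. The mean in replicates 1 and 2 over that in replicates 3 and 4 ran from 0.871 for Egr2 and 0.970 for Ier3 to 27.62 for Fosb. Hspa5, encoding the ER chaperone BiP, was 1.91-fold higher in replicates 1 and 2. What set the library sets apart was not tested.

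The regulators thus stood in a different proportion in the library sets. Per kilobase, the Ppp1r15a to Ppp1r15b ratio was 5.66, 6.94, 0.90 and 1.10 in WT and 3.94, 5.45, 0.742 and 0.906 in ATF4 overexpression. Ppp1r15a was the most abundant of the 10 transcripts per kilobase in replicates 1 and 2, whereas Eif2s3x was above it in replicates 3 and 4.

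**Figure D3:**
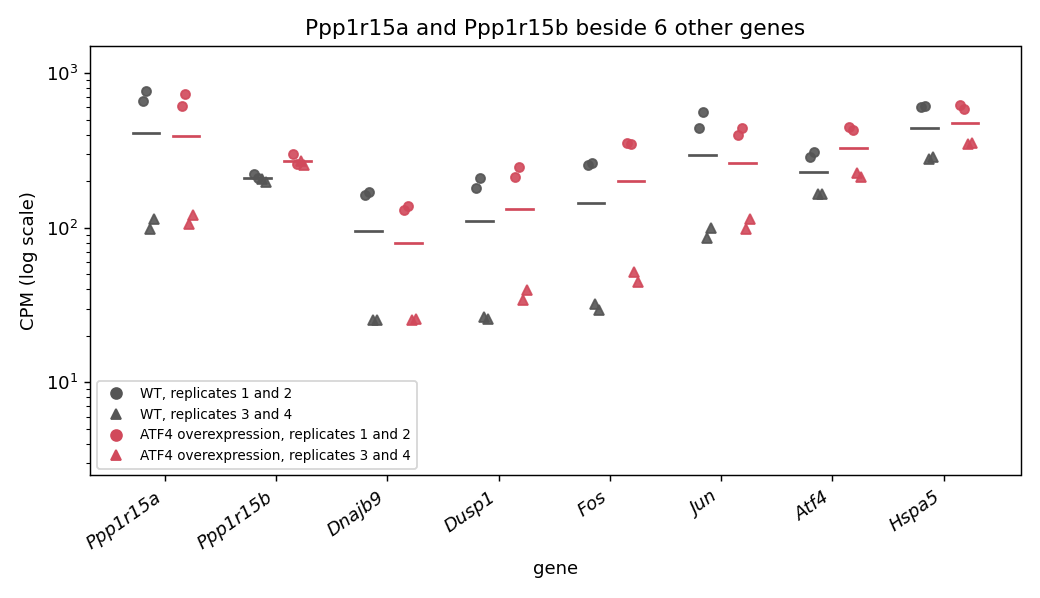
Level of Ppp1r15a, Ppp1r15b and 6 genes set beside them in CPM on a log axis, with WT in grey and ATF4 overexpression in red, circles for replicates 1 and 2, triangles for replicates 3 and 4, and lines at the group means (n = 4). In both groups circles lie well above triangles for every gene shown except Ppp1r15b, whose circles and triangles lie close together and whose groups separate by genotype. Fos, Jun and Dusp1 are among the 14 immediate early and handling stress genes, of which Egr2 and Ier3, not shown, were not higher in replicates 1 and 2.

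**Figure D4:**
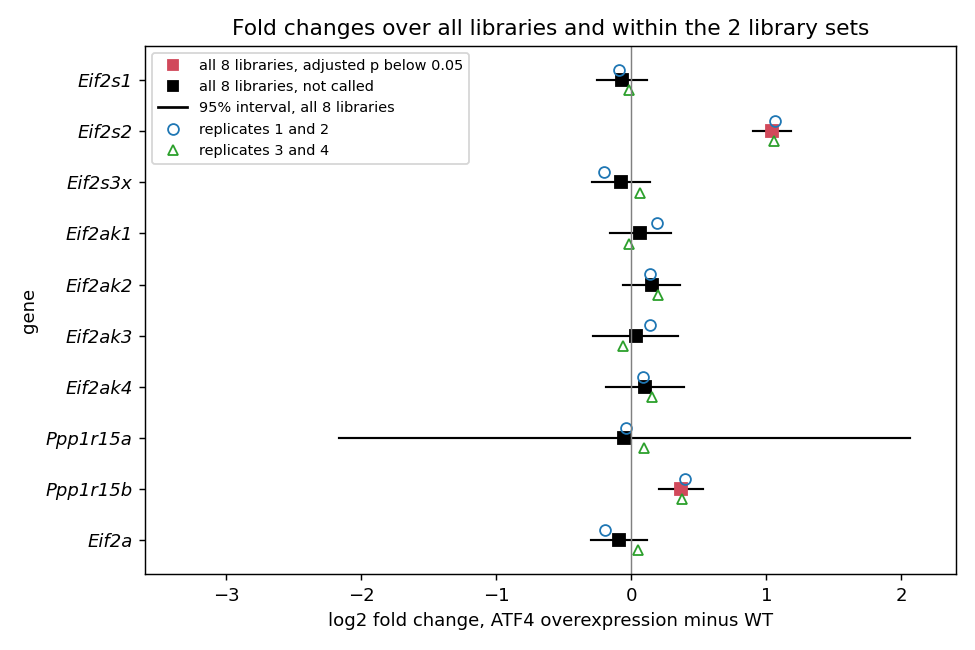
Log2 fold change, ATF4 overexpression minus WT, of the 10 genes over all 8 libraries (squares, red where the adjusted p is below 0.05, with 95% intervals) and within replicates 1 and 2 (circles) or replicates 3 and 4 (triangles). Eif2s2 and Ppp1r15b are the intervals that clear 0 with alike values in both sets, and Ppp1r15a has the widest interval.

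Genes that act on this switch, and the other ER stress sensors and their factors, were taken from 5 lists holding 38 genes. Of these, 37 were tested. Among the 37, 5 were higher and 0 lower, beside 9.16% and 4.89% of all tested genes, with a median log2 fold change of 0.00. Of the 5, 3 were from the list of ER stress sensors, which work beside the switch. With the replicate block 7 were higher and 3 lower, beside 13.7% and 13.5%.

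None of the 5 subunits of eIF2B, the exchange factor that phosphorylated eIF2 inhibits, passed the test. The log2 differences were 0.05 for Eif2b1, -0.07 for Eif2b2, -0.10 for Eif2b3, 0.03 for Eif2b4 and 0.10 for Eif2b5, with adjusted p from 0.592 to 0.834. The PP1 catalytic subunits Ppp1ca, Ppp1cb and Ppp1cc and the adaptor Nck1, which brings PP1 to eIF2 at the ER, did not pass either (-0.13, 0.01, -0.09 and -0.11). Within replicates 3 and 4 alone Nck1 was lower (-0.26, adjusted p = 0.044).

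Of the 14 tested partners of eIF2, which assemble it, stimulate its GTP hydrolysis or help to choose the start site, 0 passed the test (median -0.01). Metap2, an aminopeptidase that also binds eIF2 and shields its alpha subunit, came nearest, from 100.6 to 119.7 CPM (0.25, adjusted p = 0.0763), and Bzw2, Eif1b and Eif5b had log2 differences of -0.20, -0.18 and 0.10. With the replicate block Metap2 (0.25, adjusted p = 0.0196) and the start site selection factor Eif1 (0.25, adjusted p = 0.00122) were higher. Metap2 passed the threshold in 7 of 20 alternatives, among them DESeq2 (adjusted p = 0.0245) and replicates 3 and 4 alone (0.39, adjusted p = 0.00955), and without ATF4 overexpression 1 (adjusted p = 0.0307), but not in replicates 1 and 2 alone (0.14, adjusted p = 0.447). Eif1, like Ppp1r15a, was higher in replicates 1 and 2, by 1.97-fold, and it was named after its values were seen.

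Of the 10 regulators of the kinases, 2 were higher and 0 lower, beside 9.16% and 4.89% of all tested genes. Prkra encodes PACT, a protein activator of PKR. It had 2.88, 2.28, 3.16 and 2.63 CPM in WT and 3.97, 3.51, 7.87 and 7.84 CPM in ATF4 overexpression (1.08 ± 0.30 SE, adjusted p = 0.0393). All ATF4 overexpression libraries were above all WT libraries, with replicates 3 and 4 the highest.

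The Prkra call did not hold in replicates 1 and 2 alone (0.57, adjusted p = 0.292), unlike in replicates 3 and 4 (1.44, adjusted p = 0.00221), a difference with an adjusted p of 0.26. It was also lost when any of WT 1, 2, 3 or 4 or ATF4 overexpression 3 or 4 was left out (adjusted p 0.0606 to 0.119), and with limma-voom (1.00, adjusted p = 0.0747).

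Map3k20 encodes ZAK, a kinase that responds to stalled ribosomes. It had 0.282, 0.338, 0.392 and 0.115 CPM in WT and 1.73, 0.972, 7.0 and 6.82 CPM in ATF4 overexpression (3.87 ± 0.71 SE, adjusted p = 0.00535). It was nearly silent in WT, and its rise was not called in replicates 1 and 2 alone (2.15, adjusted p = 0.0833) or with limma-voom over all libraries (3.59, adjusted p = 0.126). ATF4 overexpression 3 and 4, with more Prkra and Map3k20, also had more erythroid and myeloid marker RNA, 242.2 to 250.3 and 258.8 to 266.9 CPM. The largest parts of these sums were Car1 and Lyz2. Itgam, on the myeloid list, went the other way, 15.2 and 16.6 CPM against 43.7 and 36.6 CPM in ATF4 overexpression 1 and 2. B cell markers also summed lower, 663.8 to 692.2 against 1102 to 1189 CPM. So did NK cell markers, 107.6 to 113.1 against 268.5 to 313.7 CPM. Platelet markers summed higher and CD4 T cell markers lower. Summed levels of 8 proliferation genes were 866.5 to 887 CPM in ATF4 overexpression 3 and 4. They were 435.4 to 471 CPM in ATF4 overexpression 1 and 2 and 279.9 to 326.1 CPM in WT. The part of other cells or of dividing cells in Prkra and Map3k20 was not tested.

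With the replicate block 3 of the 10 kinase regulators were lower, beside 13.5% of tested genes. These were Dnajc3 (-0.23, adjusted p = 0.00295), encoding p58IPK, an inhibitor of PERK and PKR, Tarbp2 (-0.24, adjusted p = 0.0243), encoding the PKR inhibitor TRBP, and Impact (-0.24, adjusted p = 0.0236), whose product holds GCN2 back from its activator. Impact was named after its values were seen. Without the block their adjusted p-values were 0.107, 0.141 and 0.562. With the library set as a block Dnajc3 and Impact were lower (adjusted p = 0.00566 and 0.0459) and Tarbp2 missed the threshold (-0.24, adjusted p = 0.0686). The GCN2 activator Gcn1 and the double-stranded RNA editing enzyme Adar each had a log2 difference of -0.09 and did not pass.

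The other sensors of ER stress and their factors, which work beside PERK, were the list with the most called genes. Of its 4 genes 3 were higher, beside 9.16% of all tested genes. Ern1, encoding the sensor IRE1 alpha, had 10.4, 9.32, 13.6 and 13.0 CPM in WT and 24.5, 22.4, 26.7 and 26.0 CPM in ATF4 overexpression (1.10 ± 0.14 SE, adjusted p = 0.000724). Atf6, encoding a membrane-bound transcription factor, had 11.5, 11.2, 18.7 and 17.7 CPM in WT and 28.5, 28.1, 31.8 and 29.3 CPM in ATF4 overexpression (0.99 ± 0.17 SE, adjusted p = 0.00423). Neither gene's groups overlapped.

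Xbp1, whose mRNA is spliced by IRE1, had 38.6, 36.2, 30.3 and 30.1 CPM in WT and 51.6, 45.8, 43.3 and 41.2 CPM in ATF4 overexpression, without overlap (0.43 ± 0.11 SE, adjusted p = 0.0262). Atf6b did not pass (0.06, adjusted p = 0.821), and PERK's own gene Eif2ak3 was at 0.03, as given above. The Ern1 call held under all 20 alternatives. Without the 4 libraries short of low counts Atf6 (adjusted p = 0.0677) and Xbp1 (adjusted p = 0.163) missed the threshold, and Xbp1 also missed it without WT 3, WT 4 or ATF4 overexpression 1 or 2 (adjusted p 0.0531 to 0.0723).

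**Figure D5:**
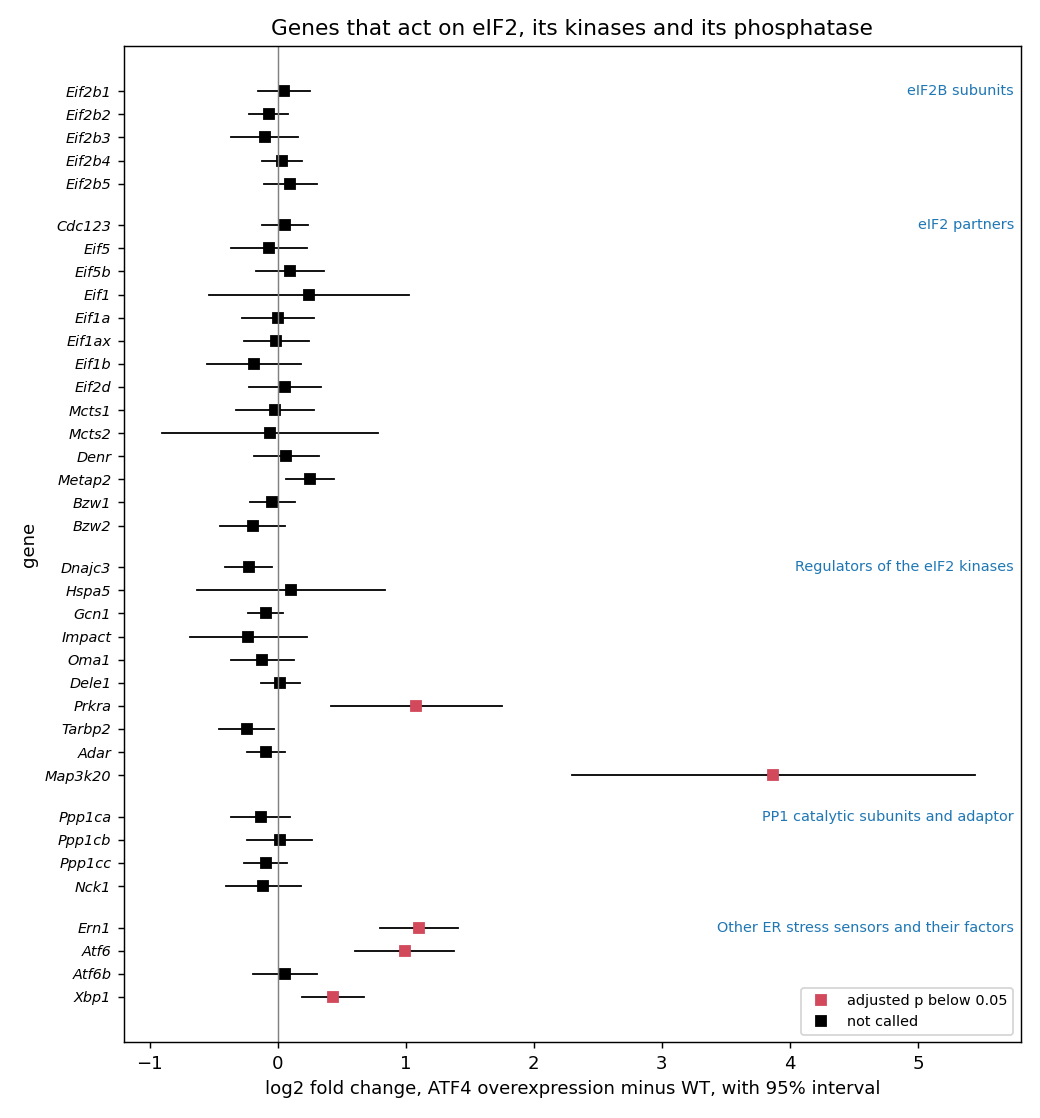
Log2 fold change, ATF4 overexpression minus WT, with 95% intervals, of the 37 tested genes of the 5 lists (red squares where the adjusted p is below 0.05). The lists hold genes that act on eIF2, its kinases or its phosphatase, and the other ER stress sensors and their factors, which work beside PERK. The 5 called genes are Prkra, Map3k20, Ern1, Atf6 and Xbp1, and the eIF2B and PP1 genes lie close to 0.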

How the data were processed

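Polyadenylated RNA of 8 libraries was sequenced as paired reads of 50 bases, per the labels' protocols. The values the authors deposited are estimated counts, 1 row per gene symbol, from Salmon and the build GRCm38.p6 per the submitters' processing notes. For the annotation release, strand setting and trimming, nothing is given in the sources used here. From here on, estimated counts were rounded to whole numbers and tested with edgeR 4.0.16 (TMM scaling, filterByExpr, robust quasi-likelihood test, Benjamini-Hochberg over 16630 genes, threshold 0.05) in R 4.3.3. DESeq2 1.42.0 and limma 3.58.1 (voom) were alternatives, with other scaling, other filters, blocks, library sets, libraries left out and, chosen after seeing the data, pseudogene counts added. Intervals are 95% intervals from the fit. CPM use TMM-scaled library sizes, and levels per kilobase use the union of annotated exons. Copies were sought with BLAST 2.17.0 (at least 95% identity over 200 bases). The test was checked on simulated data drawn without library sets, so that check does not cover the split by set.

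Replicate numbers in the titles were checked for pairing: deviations from the group means of same-numbered libraries correlated at 0.22, 0.199, 0.289 and 0.229. Differently numbered libraries of the same set correlated about as much. The values were 0.207 (WT 2 with ATF4 overexpression 1), 0.157 (WT 1 with 2), 0.232 (WT 4 with 3) and 0.254 (WT 3 with 4). This check therefore cannot tell pairing by number from the library set, and the replicate block was run as an alternative only. ATF4 overexpression 4 correlated more with WT 3 (0.254) than with WT 4. Libraries of a group differed beyond counting noise. Named genes were all 10 switch genes, every gene of lists of up to 5, and of longer lists those called and up to 4 more with the smallest p-values. The genes and lists were chosen with earlier results of these data known. No protein sequences were used here.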

Additional observations from a re-analysis of the deposited data

Results flagged for a closer look

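In the 36 switch and pathway genes examined in each group of 4 libraries, 72 groups in all, 2 had a library set apart from the other 3 by Dixon's 95% critical value for the gap over the range. Chance gives about 1 in 20 groups. Eif2a was lowest in WT 3, at 66.37 CPM against 80.16 to 82.56 CPM in the other WT libraries. Gcn1 was lowest in WT 4, at 146.4 CPM against 155.2 to 156.6 CPM in the others. The genotype difference itself differed between replicates 1 and 2 and replicates 3 and 4 for some genes set beside the switch genes (edgeR interaction test). Of the interferon-stimulated genes these were Ifit1 (adjusted p = 0.0441), Ifit3 (0.0237) and Rsad2 (0.0307). Of the NK cell markers they were Ncr1 (1.28e-05), Klrb1c (0.000492), Tyrobp (0.00096), Klra8 (0.00427) and Gzma (3.53e-06). In all 8 the log2 difference was lower in replicates 3 and 4. Of the marker lists, only the interferon-stimulated and NK cell lists were searched for this flag. In the other lists Itgam (adjusted p = 9.78e-05), Cd4 (0.00475) and Fosb (0.00324) passed the same test, also lower in replicates 3 and 4. Car1 (0.0386), Mcm5 (0.00365) and Mcm2 (0.0123) passed it with a higher difference there.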

How the results depend on the processing

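Eif2s2 kept its call under all 20 alternatives and Ppp1r15b under 19; without the 4 libraries short of low counts 1 of the 10 genes, Eif2s2, was higher. The replicate block changed no call among the 10 (for Ppp1r15a 0.0063 on the log2 scale, against -0.05). Over all tested genes, 1524 were higher and 813 lower. With DESeq2 2342 were higher. With the replicate block 2237 were lower, with the library set as a block 2327 higher and 1927 lower, in replicates 1 and 2 528 lower, in replicates 3 and 4 2434 higher and 1365 lower, and without the 4 libraries short of low counts 333 lower. Leaving out 1 library gave 1089 to 1431 higher and 518 to 677 lower, lowest without ATF4 overexpression 4. Of the pathway genes, 3 were higher with limma-voom, in replicates 1 and 2 and without the 4 libraries, and 3 to 5 when 1 library was left out (3 without WT 3 or WT 4). Lower pathway genes numbered 3 with the replicate block, 2 with the set block and 2 in replicates 3 and 4. The order per kilobase held 8 of 10 places with the longest transcript and at least 7 within each library. Log2 differences that changed sign, none of them past the threshold, were for Ppp1r15a 0.017 (voom), 0.0066 (set block) and 0.090 (replicates 3 and 4), with -0.54 to 0.45 when 1 library was left out. In replicates 1 and 2 they were Ppp1cb -0.013 and Nck1 0.11. In replicates 3 and 4 they were Eif2s3x 0.064, Eif2ak1 -0.016, Eif2ak3 -0.061, Eif2a 0.050 and Eif2b3 0.0077. Without the 4 libraries they were Eif2s1 0.051, Eif2s3x 0.091, Eif2ak3 -0.25, Eif2a 0.030, Atf4 -0.11, Eif2b3 0.042, Ppp1ca 0.012 and Eif1 -0.29. With 1 library left out, ranges that crossed 0 were Ppp1cb -0.068 to 0.078, Eif2ak3 -0.062 to 0.11, Eif2b1 -0.023 to 0.083 and Atf6b -0.015 to 0.15. The cause was not tested. The 10 genes had at least 17.5 CPM in every library.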
